A study of Mus musculus with 34 samples.

Results

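The comparison asked what cycles of a fasting mimicking diet changed in adipose tissue of mice that otherwise ate a high-fat, high-calorie diet (HFCD). The libraries compared were the 10 adipose columns of the deposited count table that the labels place in these diets, 6 from HFCD+FMD mice and 4 from HFCD mice, of 34 libraries in the series. All were C57BL/6J mice. HFCD drew 60% of its calories from fat. HFCD+FMD mice ate HFCD and, once every 4 weeks, a fasting mimicking diet (FMD) for 5 days, over 11 cycles, and from cycle 6 each fast was followed by 2 days of the control diet. Tissue was taken 4 days after the last fast ended. Mice were 20 months old, except HFCD+FMD replicate 3 and HFCD replicate 1, which were 21 months old. In 3 control libraries, from mice on a diet with 10% of calories from fat and aged 20 or 21 months, the same genes were measured, and their values stand beside the comparison. In this design the fasts, the days on control diet and the refeeding before sampling cannot be told apart, and the labels name neither the fat depot nor the sex.

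Adipose tissue stores triglyceride in adipocytes and also holds macrophages, vessels, nerves and the precursor cells from which adipocytes form. On a high-fat diet adipocytes enlarge, leptin output rises and macrophages gather around dying fat cells, while synthesis of fatty acids from carbohydrate is turned down. A fasting mimicking diet is a short diet low in calories and protein, and refeeding after it returns insulin and substrate to the tissue. In bulk tissue, fewer cells of a type and less RNA per cell cannot be told apart.

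Library totals were 27868228 to 40831656 counts in HFCD+FMD, 23523322 to 36688935 in HFCD and 15604982 to 28495331 in control. Markers of adipocytes were abundant in every library, with summed levels (CPM, read counts scaled to library size with TMM, a correction for composition) of 27501 to 58324 in HFCD+FMD, 34576 to 39901 in HFCD and 59722 to 95270 in control. The labels do not say which libraries came from which animal, so the p-values measure the spread between libraries.

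Of 15112 genes tested, 31 differed between HFCD+FMD and HFCD at a Benjamini-Hochberg adjusted p of 0.05 (edgeR quasi-likelihood F-test), which is 0.205% of those tested. Of these, 4 rose in HFCD+FMD (0.0265%) and 27 fell (0.179%). The falls included genes best known from neurons (Tph2, Syp, Ntm, Cntn2, Scn8a and Erc2), from matrix (Ccn5 and Col23a1) and from enlarging adipocytes (Mest). The rises were Tuba4a, Prlr and 2 genes with predicted names. The change exceeded 2-fold for 25 of the 31 genes. In all 31 the HFCD+FMD libraries and the HFCD libraries did not overlap. All HFCD+FMD libraries lay above all HFCD libraries for 1.39% of the genes tested, and below them for 1.95%. Without adjustment, 825 genes were higher and 868 lower at a p of 0.05, and the median log2 fold change (log2FC, HFCD+FMD over HFCD) of all genes was 0.01.

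The number of calls depended on single libraries. Leaving out HFCD replicate 4 left 5 genes, HFCD+FMD replicate 5 left 8, and leaving out HFCD replicate 3 or HFCD+FMD replicate 2 left 9 each. Without HFCD replicate 1 or 2 there were 10 calls each and without HFCD+FMD replicate 3 there were 11, whereas 80 genes passed without HFCD+FMD replicate 4. Tph2, Atp1a4, Gas2l2, Syp and Ccn5 passed in each of the 13 fits that left out 1 library, and the number of these fits passed is given with each other called gene described. Some of the gene lists counted below were made around genes already known to pass, so calls within a list are descriptions.

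**Figure D1:**
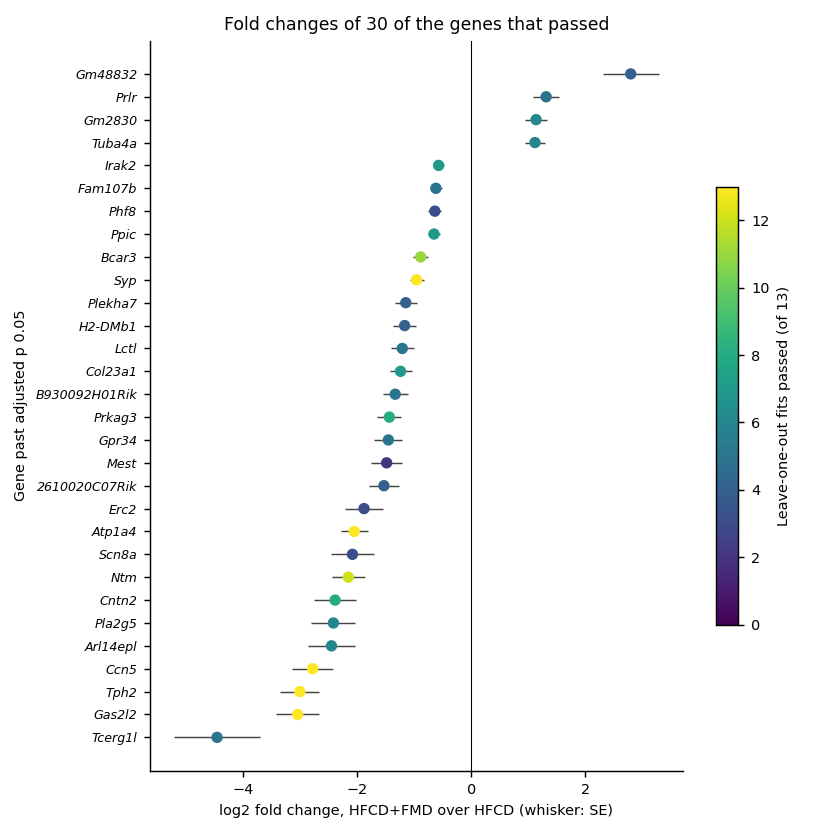
Log2 fold change of HFCD+FMD over HFCD with its SE for 30 of the 31 genes that passed, coloured by how many of 13 leave-one-out fits the gene passed. Of these genes 4 lie right of 0 and 26 left of it, and Tph2, Atp1a4, Gas2l2, Syp and Ccn5 passed in all 13 fits.

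The genes with the smallest p-values were Tph2 and Atp1a4. Their start regions, with those of Gas2l2 and Syp, are shown because these were the called genes with promoter windows that passed in every leave-one-out fit. The windows run from 250 bases before to 50 after the RefSeq start on GRCm38.p6, 5′ to 3′ on the strand of the gene, and lie at chr10:115184973-115185272 (minus strand) for Tph2, chr1:172258375-172258674 (minus) for Atp1a4, chr11:83429472-83429771 (minus) for Gas2l2 and chrX:7638330-7638629 (plus) for Syp. Capitals mark letters searched for on both strands: the TATA box TATAAA, the GC box GGGCGG, the nuclear receptor motif AGGTCA, and CAGCACC and GGACAGC, the 2 sides of the RE1 element bound by REST, a repressor of neuronal genes.
Tph2: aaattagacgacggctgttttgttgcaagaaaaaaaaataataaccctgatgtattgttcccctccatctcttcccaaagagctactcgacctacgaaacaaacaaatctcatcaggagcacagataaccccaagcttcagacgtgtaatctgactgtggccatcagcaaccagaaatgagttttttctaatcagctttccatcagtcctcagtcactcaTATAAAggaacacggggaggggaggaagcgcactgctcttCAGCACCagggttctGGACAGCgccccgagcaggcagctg
Atp1a4: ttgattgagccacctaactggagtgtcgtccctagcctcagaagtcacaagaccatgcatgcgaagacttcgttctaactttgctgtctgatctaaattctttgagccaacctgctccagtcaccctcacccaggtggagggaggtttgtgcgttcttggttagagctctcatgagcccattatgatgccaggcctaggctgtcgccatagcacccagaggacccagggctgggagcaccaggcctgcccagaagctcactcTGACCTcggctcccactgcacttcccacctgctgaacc
Gas2l2: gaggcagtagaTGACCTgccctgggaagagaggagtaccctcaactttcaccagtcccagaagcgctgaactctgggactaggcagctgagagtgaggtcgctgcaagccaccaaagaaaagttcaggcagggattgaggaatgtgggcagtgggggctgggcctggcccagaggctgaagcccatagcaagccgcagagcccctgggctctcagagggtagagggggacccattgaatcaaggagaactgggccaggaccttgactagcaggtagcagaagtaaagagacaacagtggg
Syp: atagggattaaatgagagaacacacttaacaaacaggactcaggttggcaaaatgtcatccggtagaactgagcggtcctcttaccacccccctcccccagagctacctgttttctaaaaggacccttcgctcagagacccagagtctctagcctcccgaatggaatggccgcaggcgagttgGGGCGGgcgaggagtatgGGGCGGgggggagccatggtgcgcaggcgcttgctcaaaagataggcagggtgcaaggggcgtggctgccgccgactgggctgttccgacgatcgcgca
The Tph2 window held TATAAA and both RE1 sides 8 bases apart, just after the start, and it was the only 1 of 31 windows from 23 called genes to hold both sides. Both sides, with 2 to 9 bases between them, stood in 18 of 32851 promoter windows (0.0548%). Taken singly, CAGCACC was in 1 of the 31 windows, against 7.14% of all windows, and GGACAGC in 4, from 3 genes, against 6.56%. AGGTCA was in 9 of the 31 windows, from 9 genes, against 16.3% of all windows. GGGCGG was in 15 of 31, from 13 genes, against 35.7% of all. Some genes had more than 1 window, and some of these overlapped, so the 31 windows are not independent. TATAAA stood in 2 of the 31 windows and in 13.6% of all.

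Tph2 encodes the neuronal tryptophan hydroxylase, the first enzyme of serotonin synthesis. It had 5.51 to 10.6 CPM in HFCD+FMD libraries (median 7.95), against 29.4, 125, 50.5 and 51.4 CPM in HFCD libraries and 0.678 to 1.60 CPM in control. Every HFCD+FMD library was below every HFCD library, and HFCD replicate 2 was the highest of all. Tph2 fell by 3.01 on the log2 scale (SE 0.34, adjusted p = 0.00679, edgeR). Among the 17 monoamine genes tested, Tph2 fell and 0 rose, against 0.179% and 0.0265% of all genes tested. The list's median log2FC was -0.12 (-0.21 to -0.05 with 1 library left out). The serotonin receptors Htr2b and Htr1b did not pass (log2FC -2.08 and -1.56, adjusted p = 0.342 and 0.357). In 3 of the 17 (Tph2, Htr2b and Htr1b) every HFCD+FMD library was below every HFCD library, against 1.95% of all genes tested. Htr2b had 0.045 to 2.08 CPM in HFCD+FMD and 2.47 to 3.41 CPM in HFCD.

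Syp encodes synaptophysin, a membrane protein of synaptic vesicles. It had 49.5 to 66.1 CPM in HFCD+FMD (median 55.0), against 124, 99.8, 116 and 101 CPM in HFCD and 33.7 to 48.6 CPM in control. The 4 HFCD libraries all stood apart above both other diets, and Syp fell by 0.96 (log2, SE 0.12, adjusted p = 0.00913, edgeR). The antisense gene Gm14703 shares exon bases with Syp and did not pass (log2FC -0.90, adjusted p = 0.284). Its mean level was 0.61 CPM in HFCD+FMD and 1.14 CPM in HFCD. Whether counting used strand is not stated, so reads from the shared bases cannot be told apart.

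Of 14 neural adhesion genes, Ntm and Cntn2 fell and 0 rose, against 0.179% and 0.0265% of all genes tested. The list's median log2FC was 0.46. Ntm (neurotrimin, a surface protein of the IgLON family) had 1.91 to 6.05 CPM in HFCD+FMD (median 3.09), against 17.6, 17.4, 11.5 and 18.9 CPM in HFCD. It fell by 2.16 (SE 0.29, adjusted p = 0.0133, edgeR) and passed in 12 of 13 leave-one-out fits, the exception being the fit without HFCD replicate 4. Cntn2 (contactin 2, an axonal adhesion protein) had 1.36 to 4.02 CPM in HFCD+FMD and 6.81 to 17 CPM in HFCD, and it fell by 2.39 (adjusted p = 0.0238, edgeR, 8 of 13 fits). Negr1, which is of the same family as Ntm, did not pass and had a positive estimate (0.62, adjusted p = 0.184).

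A sodium pump gene and a sodium channel gene fell as well. Atp1a4, a catalytic subunit of the sodium pump best known from sperm, had 0.945 to 2.14 CPM in HFCD+FMD (median 1.68), against 6.01, 8.76, 6.06 and 6.19 CPM in HFCD and 0.0968 to 0.267 CPM in control. The groups were well apart, and Atp1a4 fell by 2.05 (log2, SE 0.24, adjusted p = 0.00679, edgeR). Scn8a, a voltage-gated sodium channel of neurons, had 0.721 to 3.11 CPM in HFCD+FMD and 4.47 to 7.62 CPM in HFCD. Scn8a fell by 2.08 (adjusted p = 0.0462, edgeR, 3 of 13 fits), and the highest HFCD+FMD library was replicate 4. These were the 2 falls among 17 sodium channel and pump genes, against 0.179% of all genes tested, and 0 rose. The list median was 0.14 (0.04 to 0.25 with 1 library left out). Scn3b, an accessory channel subunit, had a positive estimate that did not pass (0.97, adjusted p = 0.229).

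Erc2, a scaffold of the presynaptic active zone, had 0.495 to 1.45 CPM in HFCD+FMD and 3.23 to 5.20 CPM in HFCD, a fall of 1.88 (adjusted p = 0.0416, edgeR, 3 of 13 fits). Gas2l2, which links actin to microtubules and acts in motile cilia, had 0.292 to 1.18 CPM in HFCD+FMD (median 0.879), against 5.29, 5.09, 7.91 and 8.14 CPM in HFCD and 0.280 to 0.934 CPM in control. It fell by 3.05 (SE 0.38, adjusted p = 0.00913, edgeR), and its HFCD+FMD and control ranges overlapped. Of 9 markers of neurons and Schwann cells tested, 0 passed, 8 had higher estimates in HFCD+FMD, and their summed level was 263 to 375 CPM in HFCD+FMD and 234 to 360 CPM in HFCD. The neuronal markers Snap25, Syt1 and Elavl4 were not analysed here, and the part of nerve content in these results was not tested.

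**Figure D2:**
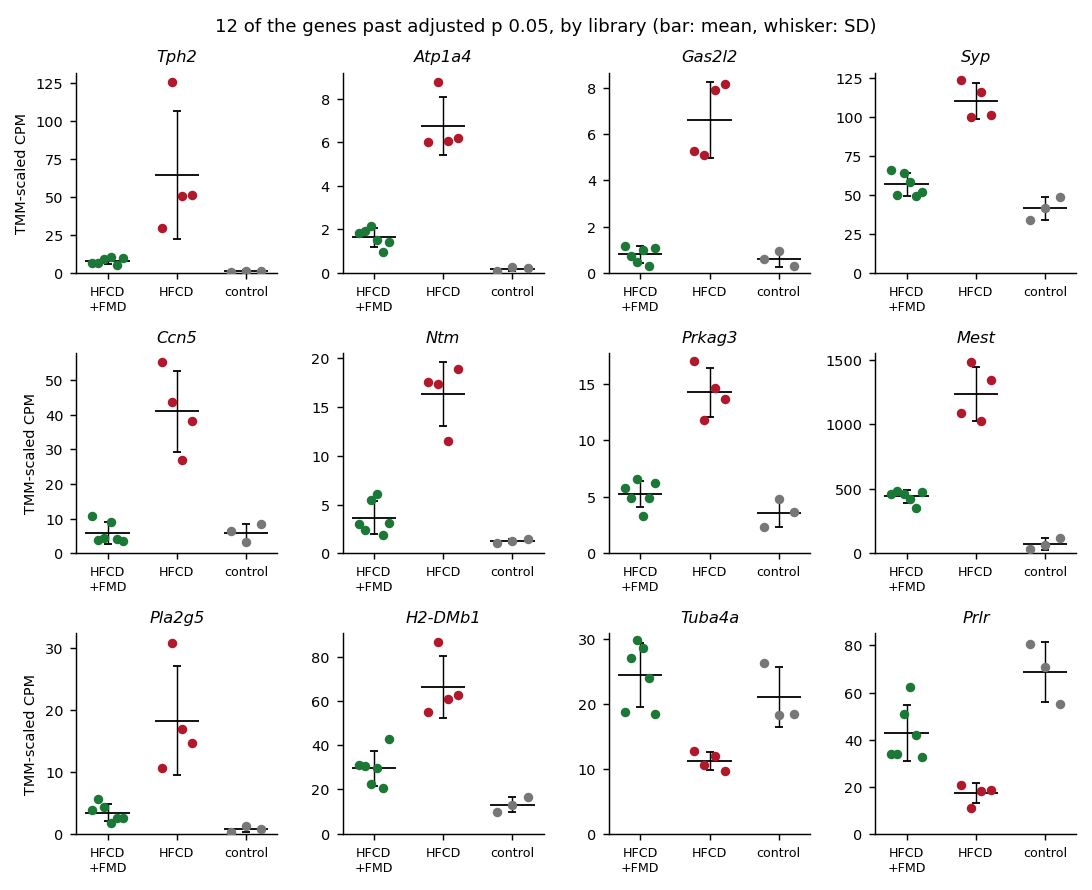
TMM-scaled CPM (linear axis from 0) of 12 genes that passed, with 1 point per library, the mean as a bar and the SD as a whisker, for HFCD+FMD (n = 6), HFCD (n = 4) and control (n = 3). HFCD+FMD points lie below every HFCD point in the 10 genes that fell and above every HFCD point for Tuba4a and Prlr.

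Ccn5, Mest and Col23a1, tied to matrix or fat cell growth, fell in HFCD+FMD. The separate list of collagens and matrix genes, which included neither Ccn5 nor Col23a1, held no call. Ccn5, a secreted matricellular protein made by adipocyte precursors, had 3.59 to 10.9 CPM in HFCD+FMD (median 4.28), against 55.1, 43.6, 26.8 and 38.1 CPM in HFCD and 3.25 to 8.31 CPM in control. The HFCD+FMD and control ranges overlapped and both lay below HFCD, and Ccn5 fell by 2.78 (SE 0.36, adjusted p = 0.00977, edgeR). It was the only 1 of 5 CCN genes tested to pass, against 0.205% of all genes tested. Ccn1 had a log2FC of -0.81 (adjusted p = 0.415).

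Mest, an imprinted gene known to rise in enlarging adipocytes, had 355 to 484 CPM in HFCD+FMD (median 459), against 1092, 1481, 1030 and 1341 CPM in HFCD and 30.6 to 123 CPM in control. The 3 diets did not overlap for this gene, with HFCD highest and control lowest. Mest fell by 1.48 (SE 0.27, adjusted p = 0.0472, edgeR) and passed in only 2 of 13 leave-one-out fits. Copg2, whose exons share bases with Mest on the other strand, had a log2FC of -0.14 (adjusted p = 0.8). Of 11 adipocyte growth genes Mest alone fell and 0 rose, against 0.179% and 0.0265% of all genes tested. Sfrp5, a secreted inhibitor of Wnt signalling, had 46.1 to 339 CPM in HFCD+FMD and 430 to 590 CPM in HFCD and did not pass (log2FC -1.58, SE 0.50, adjusted p = 0.266). Fam13a, which acts in adipocyte differentiation and insulin signalling, had 69.8 to 252 CPM in HFCD+FMD and 46.2 to 58.5 CPM in HFCD (log2FC 1.57, adjusted p = 0.0744).

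Lep encodes leptin, the hormone by which fat signals its stores. It had 1363 to 2386 CPM in HFCD+FMD (median 1503), against 4132, 5587, 3638 and 3368 CPM in HFCD and 351 to 871 CPM in control. The groups did not overlap, and HFCD+FMD replicate 4 was the highest of its group. Lep missed the threshold (log2FC -1.36, SE 0.25, adjusted p = 0.0553, edgeR). It passed without HFCD+FMD replicate 4 or without control replicate 1, in DESeq2, in voom with quality weights, in the HFCD+FMD and HFCD libraries alone and with age as a covariate, but not in voom (adjusted p = 0.11). No other of the 10 adipokines tested had groups that did not overlap. Of all genes tested, 1.95% had every HFCD+FMD library below every HFCD library. Adipoq (adiponectin) had a log2FC of 0.13 (adjusted p = 0.89).

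Col23a1, a transmembrane collagen, had 2.96 to 5.61 CPM in HFCD+FMD, against 11.3, 9.81, 9.61 and 10.6 CPM in HFCD, and it fell by 1.24 (SE 0.19, adjusted p = 0.0238, edgeR, 7 of 13 fits). It was not in the list of 38 collagen and matrix genes, of which 0 rose and 0 fell, 31 estimates were lower, and the median log2FC was -0.26, against 0.01 for all genes. That median was -0.09 without HFCD replicate 4 and -0.42 without HFCD+FMD replicate 4. For 5 of the 38, against 1.95% of all genes tested, all HFCD+FMD libraries were below all HFCD libraries. They included the basement membrane chains Col4a2 (946 to 1541 CPM in HFCD+FMD and 1661 to 1971 CPM in HFCD, log2FC -0.68, adjusted p = 0.112) and Col4a1 (-0.62, adjusted p = 0.188).

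In metabolic signalling Prkag3 and Pla2g5 fell and the prolactin receptor rose. Prkag3, the gamma 3 subunit of the energy sensor AMPK and best known from skeletal muscle, had 3.32 to 6.55 CPM in HFCD+FMD (median 5.34), against 17, 11.8, 14.6 and 13.6 CPM in HFCD and 2.32 to 4.80 CPM in control. HFCD stood above both other diets, and Prkag3 fell by 1.44 (SE 0.21, adjusted p = 0.0182, edgeR, 8 of 13 fits). The other 8 AMPK subunits and upstream kinases did not pass, with log2FC values of 0.22 for Stk11 and 0.28 for Prkag2 (adjusted p = 0.351 and 0.383). Of 5 skeletal muscle markers tested, 0 passed and all 5 had lower estimates, and their summed level was 7.41 to 23.7 CPM in HFCD+FMD and 19.8 to 65.2 CPM in HFCD. The part of muscle RNA in the Prkag3 result was not tested.

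Pla2g5, a secreted phospholipase A2, had 1.66 to 5.54 CPM in HFCD+FMD (median 3.20), against 10.5, 30.8, 16.9 and 14.6 CPM in HFCD and 0.194 to 1.2 CPM in control. The diets did not overlap, and Pla2g5 fell by 2.42 (SE 0.39, adjusted p = 0.0292, edgeR, 6 of 13 fits). All 7 genes of the phospholipase list had negative estimates with a median of -0.38 (-0.59 without HFCD+FMD replicate 1), but the rest did not pass, Pla2g2e among them (-0.98, adjusted p = 0.488).

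Prlr, the receptor for prolactin, had 32.8 to 62.3 CPM in HFCD+FMD (median 38), against 20.9, 11.0, 18.2 and 18.7 CPM in HFCD and 55.1 to 80.5 CPM in control. All HFCD+FMD libraries were above all HFCD libraries, and Prlr rose by 1.31 on the log2 scale (SE 0.23, adjusted p = 0.0338, edgeR, 5 of 13 fits). It was the only 1 of 10 prolactin and growth hormone signalling genes to pass, against 0.205% of all genes tested. Of the 10, 9 had higher estimates, and the list median was 0.27. Socs2, a feedback inhibitor of this signalling, had a log2FC of 0.51 (adjusted p = 0.451).

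Among immune genes, 3 with roles in antigen loading or innate signalling fell. H2-DMb1, a chain of the chaperone that loads peptides onto MHC class II, had 20.9 to 42.8 CPM in HFCD+FMD (median 30.1), against 54.9, 86.6, 61.0 and 62.7 CPM in HFCD and 9.68 to 16.5 CPM in control. The diets did not overlap and H2-DMb1 fell by 1.17 (SE 0.20, adjusted p = 0.0346, edgeR, 4 of 13 fits). Its near-identical copy H2-DMb2 had the opposite sign (log2FC 0.83, adjusted p = 0.519), and since the counting could divide reads between the copies the split is uncertain. Of 11 MHC class II genes, H2-DMb1 fell and 0 rose, against 0.179% and 0.0265% of all genes tested. Among the 11, 10 had negative estimates, and the median was -0.98. In 5 of the 11, H2-DMb1 among them, every HFCD+FMD library was below every HFCD library, against 1.95% of all genes tested. H2-Aa had 115 to 419 CPM in HFCD+FMD and 559 to 877 CPM in HFCD (log2FC -1.25, SE 0.30, adjusted p = 0.145). H2-Eb1 and H2-Ab1 had log2FC values of -1.28 and -1.09 (adjusted p = 0.152 and 0.18), and Ciita, the master regulator of these genes, had -1.14 (adjusted p = 0.185).

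Gpr34, a lysophosphatidylserine receptor of microglia and other myeloid cells, had 5.37 to 9.75 CPM in HFCD+FMD, against 14.8, 17.5, 16.8 and 26.3 CPM in HFCD. It fell by 1.45 (SE 0.25, adjusted p = 0.0317, edgeR, 5 of 13 fits). Irak2, a kinase downstream of interleukin 1 and Toll-like receptors, had 56.4 to 64.7 CPM in HFCD+FMD and 81.2 to 102 CPM in HFCD, a fall of 0.57 (adjusted p = 0.0238, edgeR, 7 of 13 fits). Macrophage markers also had lower estimates, with no call. The summed level of 12 macrophage markers was 1223 to 3246 CPM in HFCD+FMD and 2051 to 4283 CPM in HFCD, 9 of the 12 had negative estimates, and 0 passed. Adgre1 had 51.1 to 312 CPM in HFCD+FMD and 188 to 313 CPM in HFCD (log2FC -0.79, adjusted p = 0.604), and Cd68 had -0.82 (adjusted p = 0.606), or -0.36 without HFCD replicate 4. The median of the macrophage list was -0.53, and -0.24 without that library. Of 14 markers of lipid-associated macrophages 13 had negative estimates with a median of -0.71 and 0 passed. Itgax, the integrin CD11c, had 7.72 to 64.6 CPM in HFCD+FMD, against 124, 101, 117 and 101 CPM in HFCD (log2FC -1.86, SE 0.48, adjusted p = 0.174), and Trem2 had -0.97 (adjusted p = 0.556). All 20 lysosomal genes had negative estimates, with a median of -0.41, and 0 passed. The part of macrophage number in the immune results was not tested.

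Bcar3, an adaptor in integrin signalling, had 82.2 to 131 CPM in HFCD+FMD and 189 to 218 CPM in HFCD, a fall of 0.89 (SE 0.13, adjusted p = 0.0153, edgeR, 11 of 13 fits). Plekha7, a protein of adherens junctions, had 7.38 to 12.1 CPM in HFCD+FMD and 16.4 to 25 CPM in HFCD and fell by 1.15 (adjusted p = 0.0317, edgeR, 4 of 13 fits). Phf8, a histone demethylase, had 63.7 to 86.4 CPM in HFCD+FMD, 109.5 to 120 CPM in HFCD and 76.9 to 114 CPM in control, and fell by 0.64 (adjusted p = 0.0416, edgeR, 3 of 13 fits). Ppic, the prolyl isomerase cyclophilin C, had 50.7 to 62.4 CPM in HFCD+FMD and 85.1 to 90.1 CPM in HFCD and fell by 0.65 (adjusted p = 0.0238, edgeR, 7 of 13 fits). Fam107b fell by 0.62 and Arl14epl by 2.45 (adjusted p = 0.0317 for each, edgeR, 5 and 6 of 13 fits). Levels of Arl14epl were low, with 0.181 to 0.639 CPM in HFCD+FMD and 1.64 to 2.84 CPM in HFCD, so its fold change rests on few counts.

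Lctl, of the klotho family, had 38.8 to 72.7 CPM in HFCD+FMD (median 45.8), against 107, 113, 117 and 146 CPM in HFCD and 89.8 to 161 CPM in control, so the HFCD and control ranges overlapped above HFCD+FMD. Lctl fell by 1.21 (SE 0.20, adjusted p = 0.0317, edgeR, 5 of 13 fits). Tcerg1l was near the floor, with 0 to 0.192 CPM in HFCD+FMD and 0.945 to 1.59 CPM in HFCD. Its fitted log2FC of -4.46 (adjusted p = 0.0317, edgeR, 5 of 13 fits) rests on few counts in HFCD+FMD. The 4 genes with predicted or clone names, among them the processed pseudogene Gm2830, had log2FCs between -1.53 and 2.80 and passed in 4 to 6 of 13 fits.

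Tuba4a, an alpha tubulin, had 18.4 to 29.8 CPM in HFCD+FMD (median 25.5), against 12.7, 10.6, 12.0 and 9.64 CPM in HFCD and 18.3 to 26.3 CPM in control. The HFCD libraries were below both other diets, and Tuba4a rose by 1.12 (SE 0.17, adjusted p = 0.0238, edgeR, 6 of 13 fits). Stk16, which overlaps Tuba4a on the other strand, had a log2FC of 0.19 (adjusted p = 0.537). Of 12 tubulin genes Tuba4a rose and 0 fell, against 0.0265% and 0.179% of all genes tested, and the median was 0.45. In 4 of the 12, Tuba4a among them, every HFCD+FMD library was above every HFCD library, against 1.39% of all genes tested. The other 3 were Tubb4b (log2FC 0.56, adjusted p = 0.159), Tuba8 (1.89, adjusted p = 0.281) and Tubb3 (1.30, adjusted p = 0.298). Tuba8 had 1.39 CPM in HFCD replicate 1 and Tubb3 had 3.29 CPM in HFCD+FMD replicate 6. Each value stood apart from the rest of its group.

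**Figure D3:**
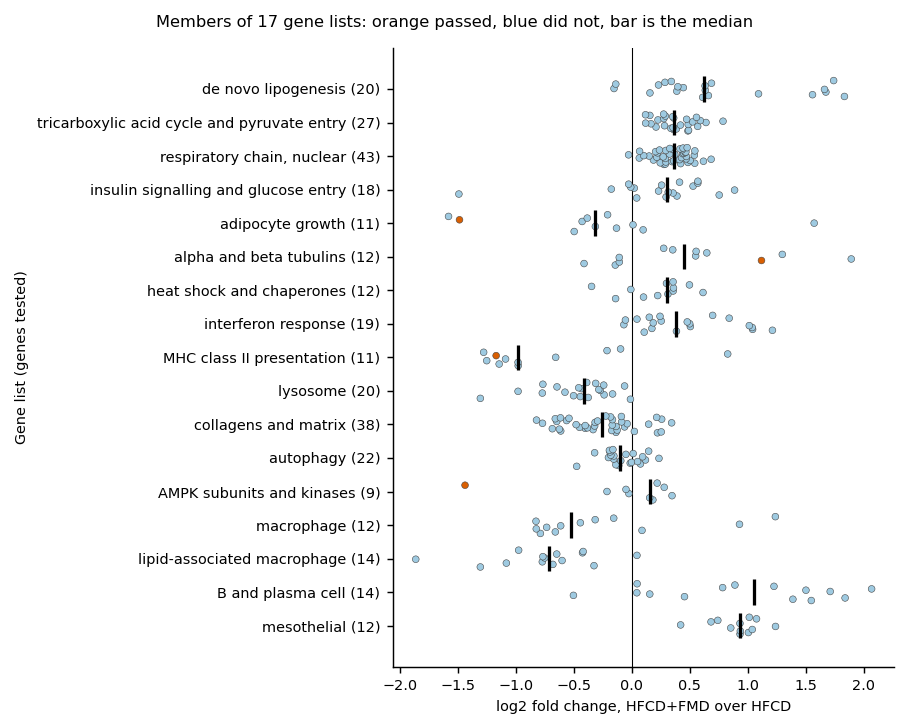
Log2 fold change of HFCD+FMD over HFCD for each tested member of 17 gene lists, with members that passed in orange, the others in blue and the list's median as a black bar. Among the 17 lists shown the medians lie between -0.98 for MHC class II presentation and 1.06 for B and plasma cell markers, and few members passed.

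Genes of fatty acid synthesis and of the mitochondrion had higher estimates in HFCD+FMD, but 0 passed. Of 20 lipogenesis genes 18 had higher estimates, with a median log2FC of 0.62. Acaca, which makes malonyl-CoA, had 113, 367, 366, 73.9, 342 and 65.7 CPM in HFCD+FMD replicates 1 to 6, against 62.0, 65.2, 65.7 and 55.3 CPM in HFCD and 753 to 1211 CPM in control. Replicates 2, 3 and 5 were high and replicates 4 and 6 were close to HFCD, so the spread within HFCD+FMD was wide (log2FC 1.83, SE 0.50, adjusted p = 0.193). Fasn, which builds palmitate, had 769 to 6974 CPM in HFCD+FMD and 1034 to 1377 CPM in HFCD (1.66, SE 0.64, adjusted p = 0.36). Acly and Elovl6 had log2FC values of 1.56 and 1.67 (adjusted p = 0.266 and 0.331), and the desaturase Scd1 had -0.14 (adjusted p = 0.931). Thrsp, a lipogenic protein of adipocytes, was the only 1 of the 20 with all HFCD+FMD libraries above HFCD, against 1.39% of all genes tested. It had 261 to 1067 CPM in HFCD+FMD and 152 to 234 CPM in HFCD (1.74, SE 0.41, adjusted p = 0.146).

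All 27 genes of the tricarboxylic acid cycle and pyruvate entry had higher estimates (median 0.36), as did 42 of 43 nuclear genes of the respiratory chain (median 0.36). In 4 of the 27 and 7 of the 43 the HFCD+FMD libraries were all above the HFCD libraries, against 1.39% of all genes tested. Ndufb10, a subunit of complex I, had 90.8 to 121 CPM in HFCD+FMD, against 73.5, 65.6, 75.9 and 74.4 CPM in HFCD (log2FC 0.54, SE 0.12, adjusted p = 0.112). Pdhb, of the pyruvate dehydrogenase complex, had 91.9 to 169 CPM in HFCD+FMD and 67.5 to 80.4 CPM in HFCD (0.79, SE 0.24, adjusted p = 0.234). Pdha1, Idh3b and Cox5b had log2FC values of 0.53, 0.57 and 0.62 (adjusted p = 0.247, 0.193 and 0.199). The 14 mitochondrially encoded genes analysed here, among them 7 of 13 that code for proteins, took 2.20 to 7.47% of counts in HFCD+FMD (mean 5.35 ± 2.18, SD, n = 6), against 2.29, 2.17, 5.46 and 6.08% in HFCD and 12.6 to 29.3% in control. The difference of 1.34 percentage points between HFCD+FMD and HFCD was within the spread (exact two-sided permutation test, p = 0.376, smallest p possible 0.00476).

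No gene of lipid release or of insulin signalling passed. Adrb3, the adrenergic receptor that starts lipolysis in mouse fat, had 141 to 418 CPM in HFCD+FMD, against 127, 65.0, 140.3 and 89.4 CPM in HFCD and 342 to 781 CPM in control (log2FC 1.38, SE 0.35, adjusted p = 0.174). The lowest HFCD+FMD library was only just above the highest HFCD library. The lipases Pnpla2 and Lipe had log2FC values of 0.26 and 0.06 (adjusted p = 0.612 and 0.923), and the droplet protein Cidec had -0.45 (adjusted p = 0.371). Grb10, an adaptor that restrains the insulin receptor, had 112 to 168 CPM in HFCD+FMD and 74.9 to 95.2 CPM in HFCD (0.75, SE 0.15, adjusted p = 0.0638). Its relative Grb14 had 1.79 to 7.06 CPM in HFCD+FMD and 9.37 to 15.3 CPM in HFCD (-1.49, adjusted p = 0.167). Slc2a4, the insulin-regulated glucose transporter, had 134 to 250 CPM in HFCD+FMD and 99.3 to 173 CPM in HFCD (0.57, SE 0.21, adjusted p = 0.333). Tbc1d4, which controls the transporter's move to the surface, had 0.57 (adjusted p = 0.145), Irs1 had 0.89 (adjusted p = 0.398) and Igf1 had 0.33 (adjusted p = 0.618).

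**Figure D4:**
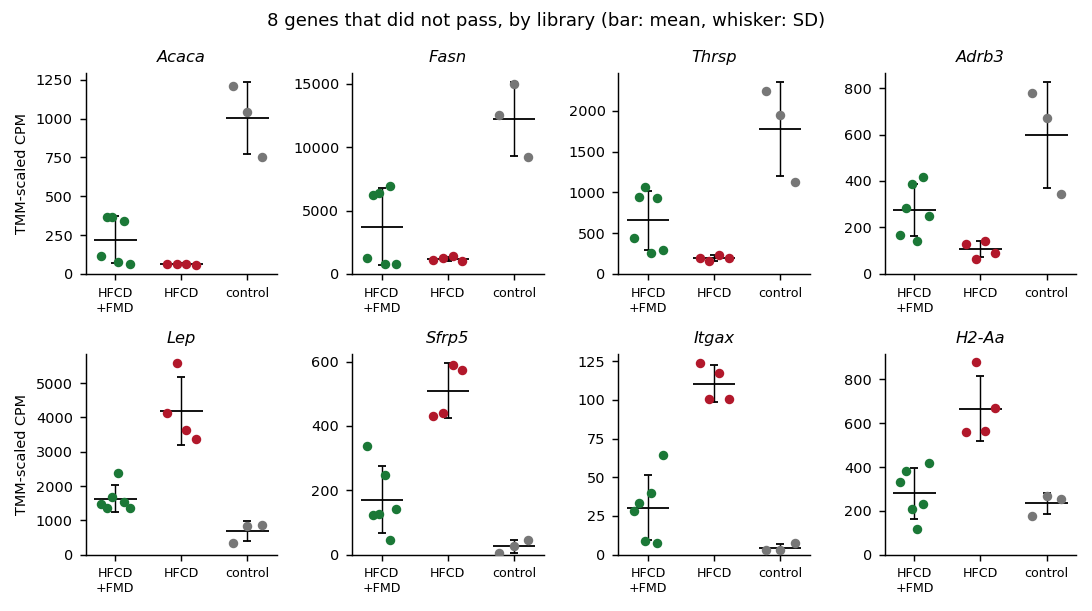
TMM-scaled CPM (linear axis from 0) of 8 genes that did not pass, with 1 point per library, the mean as a bar and the SD as a whisker, for HFCD+FMD (n = 6), HFCD (n = 4) and control (n = 3). For Fasn the HFCD+FMD libraries span the HFCD range, for Acaca the lowest HFCD+FMD library lies within it, and for Lep, Sfrp5, Itgax and H2-Aa all HFCD+FMD points lie below HFCD.

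The spread among HFCD+FMD libraries was wider than among HFCD libraries. The median SD of a gene's log2 CPM was 0.28 in HFCD+FMD and 0.23 in HFCD, with no test made. On the first principal component of the 10 libraries, with 31.1% of the variance, HFCD+FMD replicates 1, 2, 3 and 5 scored 26.6, 30.7, 35.9 and 56.4. Replicates 4 and 6 scored -41.0 and -16.4, on the same side of 0 as the 4 HFCD libraries, which scored -33.5 to -9.48. The diets were thus not separated on this component.

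**Figure D5:**
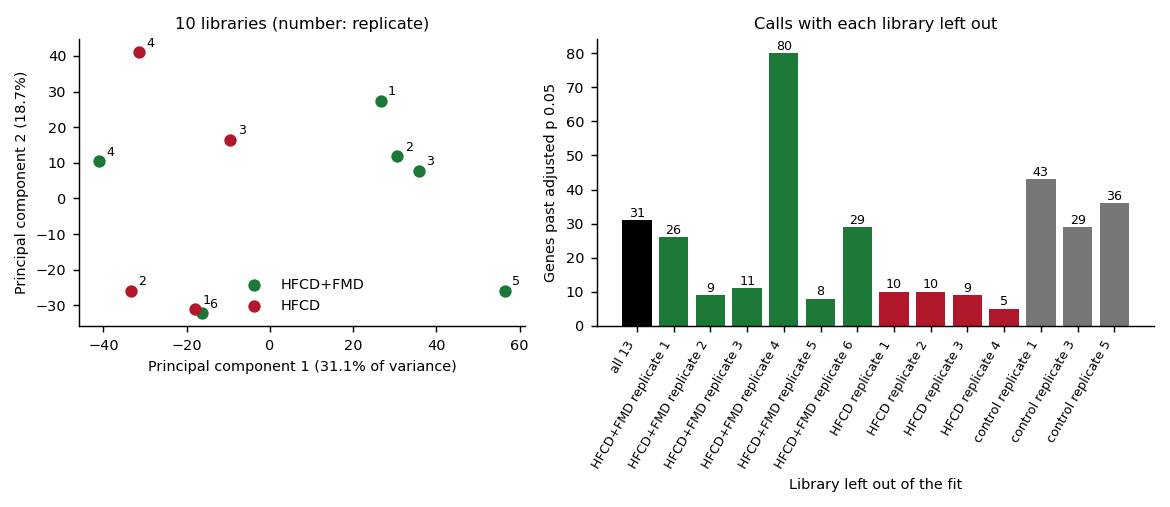
Left, the 10 compared libraries on the first and second principal components of log2 CPM, numbered by replicate. Right, bars from 0 with the number of genes past an adjusted p of 0.05 with all 13 libraries (31) and with each library left out, from 5 without HFCD replicate 4 to 80 without HFCD+FMD replicate 4.

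Across the 56 lists with a gene tested, 46 held no gene that passed. The lowest medians were -1.70 for 5 pancreas and liver markers and -1.28 for 6 mast cell markers. Without HFCD replicate 4 they were -0.46 and 0.06. Of 12 heat shock and chaperone genes 9 had higher estimates (median 0.31). In 4 of the 12 all HFCD+FMD libraries were above all HFCD libraries, against 1.39% of all genes tested. Among the 4 was the mitochondrial chaperone Hspd1 (102 to 129 CPM in HFCD+FMD and 70.1 to 97.0 CPM in HFCD, log2FC 0.50, adjusted p = 0.146). Of 19 interferon response genes 17 had higher estimates (median 0.39, but 0.92 without HFCD replicate 4 and 0.18 without HFCD+FMD replicate 4), and Ifit3 had 1.04 (adjusted p = 0.451). Markers of B and plasma cells had a median of 1.06 over 14 genes (1.65 without HFCD replicate 4 and 0.53 without HFCD+FMD replicate 2), with summed levels of 51.2 to 272 CPM in HFCD+FMD and 34.5 to 79.2 CPM in HFCD. Mesothelial markers had higher estimates in all 12, with a median of 0.93 and summed levels of 39.6 to 320 CPM in HFCD+FMD and 36.3 to 174 CPM in HFCD. Wt1 of that list had 8.90 to 39.3 CPM in HFCD+FMD and 5.73 to 17.1 CPM in HFCD (1.01, adjusted p = 0.408). Medians were near that of all genes for fatty acid oxidation (0.07, 17 genes), thermogenic genes (0.07, 12 genes), glycolysis (0.03, 15 genes) and triglyceride storage (-0.03, 16 genes). For the proliferation marker Mki67 the log2FC was 0.19 (adjusted p = 0.872), for Ppargc1a, a regulator of mitochondrial genes, 0.33 (adjusted p = 0.794), and for the clock gene Nr1d1 0.32 (adjusted p = 0.799). The glucocorticoid-responsive gene Fkbp5 had -0.29 (adjusted p = 0.804), the endothelial apelin receptor Aplnr 0.38 (adjusted p = 0.638), and Col6a3, a collagen of adipose matrix, -0.32 (adjusted p = 0.548).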

How the data were processed

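Libraries were made from total RNA after ribosomal RNA removal and sequenced on a HiSeq3000, per the labels' protocols. The submitters' processing notes name STAR 2.5.3, R 3.5.3, edgeR, limma and the mm10 genome. The counting program, annotation and strand setting are not given in the sources used here. Raw counts per gene were deposited by the authors for adipose tissue. They also deposited log2 values per gene, which equal log2 CPM with 0.5 added to each count, up to 1 constant per library (largest departure 5.01e-09, 15082 genes).

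From the counts, 15112 of 15145 genes passed edgeR's filterByExpr. A quasi-likelihood model (edgeR 4.0.16, R 4.3.3, TMM scaling, robust prior) was fitted to the 13 adipose libraries with a column, the 3 diets sharing 1 estimate of spread, and HFCD+FMD was contrasted with HFCD. Another 4 adipose libraries in the labels were not analysed here. Tests were two-sided, with Benjamini-Hochberg adjustment over all genes tested at 0.05. CPM values are TMM-scaled, and a standard error is the log2 fold change over the square root of F. Totals of 23523322 to 40831656 counts in the 10 compared libraries set the counting precision, which is lowest for genes under 1 CPM. Alternatives used DESeq2 1.42.0, limma 3.58.1 (voom), other filters and covariates, and each library left out, and the code was tested on simulated data. The genes and lists were chosen with earlier results of these data known, some lists around genes already known to pass, so their counts are descriptions. The text names the genes that passed (predicted and clone names as a range, and 1 gene not reported here), up to 4 members of a list with the smallest p, and a fixed set of metabolic and immune genes. H2-DMb2, Ciita and overlapping neighbours were added after results were seen. Replicate numbers follow accession order and pair no samples. Promoter windows are from RefSeq, GRCm38.p6, and figures were drawn with matplotlib 3.10.9.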

Additional observations from a re-analysis of the deposited data

Results flagged for a closer look

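In 278 groups of libraries examined, 24 values stood apart from the rest of their group by Dixon's criterion, 13 in HFCD+FMD and 11 in HFCD. A group was 1 gene, 1 summed marker list, the total counts or the mitochondrially encoded share in 1 diet. The criterion was the gap to the nearest library over the range of the group, at the 95% level. For independent, normally distributed values chance would flag about 1 in 20 groups. The groups examined share the same libraries and hold unlogged values, so the number flagged was not tested against chance. HFCD+FMD replicate 4 held 7 of the values and HFCD replicate 2 held 5.

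HFCD+FMD replicate 4 stood apart for Scn8a (3.11 CPM), Lep (2386 CPM), Col4a2 (1541 CPM), Sparc (5363 CPM), Wif1 (1.57 CPM), the summed mast cell markers (87.3 CPM) and the summed red blood cell markers (647 CPM). Among the other HFCD+FMD libraries, replicate 1 stood apart for Tcerg1l (0.192 CPM) and Atp5d (109.7 CPM), replicate 2 for Cd79a (13.3 CPM) and H2-DMb2 (8.85 CPM), replicate 5 for Irs1 (137 CPM) and replicate 6 for Tubb3 (3.29 CPM).

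HFCD replicate 2 stood apart for Atp1a4 (8.76 CPM), Fkbp5 (216 CPM), mt-Nd6 (62.9 CPM), H2-Eb1 (654 CPM) and the summed brown adipocyte markers (35.5 CPM). HFCD replicate 1 stood apart for Pla2g2e (2.88 CPM) and Tuba8 (1.39 CPM), and replicate 4 for Acly (209 CPM), Cd79a (3.16 CPM), H2-DMb2 (3.66 CPM) and the summed mast cell markers (144 CPM).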

How the results depend on the processing

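Of 31 calls, 29 were also made by DESeq2, by voom and by voom with quality weights, and voom alone missed Mest and Gm48832. DESeq2 called 302 genes (116 higher, 186 lower), voom 60 (4 higher, 56 lower) and voom with quality weights 521 (139 higher, 382 lower), and the cause was not tested. The 60 voom calls were all among those of the other two tools. A test against a 1.2-fold change called 9. The count was 31 with DESeq2's size factors, without the low-count filter and without the robust prior, 29 with a stricter filter, 45 from the HFCD+FMD and HFCD libraries alone, 42 with age as a covariate and 27 from the deposited log2 values, where Pla2g5, Arl14epl, Erc2 and Mest did not pass (adjusted p = 0.0669, 0.0641, 0.08 and 0.0697, limma). The stricter filter dropped Arl14epl and Tcerg1l, and Gm48832 did not pass in the HFCD+FMD and HFCD libraries alone. Leaving out 1 library gave 5 to 80 calls. The log2 fold change of Fkbp5 turned to 0.14 with quality weights and ran between -0.48 and 0.31 with 1 library left out. That of Scd1 turned to 0.051 with quality weights and ran between -0.37 and 0.043, and that of Mki67 ran between -0.016 and 0.41. The difference in mitochondrially encoded share was 1.56 percentage points without the highest nuclear genes and 0.734 to 2.04 with 1 library left out. No called gene reversed under these settings. No paired analysis applied, because the 18 mice of the study were divided into 3 diet groups. Groups of 6 and 4 libraries, unequal spread and counts near 0 for the rarest genes limit what could be detected.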

Other observations

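Several genes differed widely among the HFCD+FMD libraries themselves, and they are named here after their values were seen. Itgad, the integrin CD11d of tissue macrophages, had 0.479, 0.75, 1.09, 127.5, 1.30 and 12.4 CPM in HFCD+FMD replicates 1 to 6, against 37.6, 82.3, 27.3 and 26.1 CPM in HFCD. Gpnmb, a glycoprotein of lipid-laden macrophages, had 377, 496, 40.6, 1479, 55.1 and 1125 CPM in HFCD+FMD, against 696, 584, 1293 and 1035 CPM in HFCD. HFCD+FMD replicate 4 was the highest of its group for both genes, and replicates 3 and 5 were the lowest for Gpnmb. Sptlc3, a subunit of the enzyme that starts sphingolipid synthesis, had 64.2 CPM in HFCD+FMD replicate 4 and at most 3.29 CPM in the other compared libraries. Myh6, a myosin of heart muscle, had 43.9 CPM in HFCD+FMD replicate 6, and 36.3 and 12.8 CPM in HFCD replicates 1 and 2. Its level was at most 1.67 CPM in the other compared libraries. Actc1 and Mb were also highest in HFCD+FMD replicate 6 and HFCD replicates 1 and 2. Those libraries had the lowest mitochondrially encoded shares of counts (2.20, 2.29 and 2.17%). The part of muscle RNA was not tested.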
